A study of Mus musculus with 8 samples.

Results

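The FGF ligand genes on the arrays were examined as a group of 10 genes, *Fgf3*, *Fgf4*, *Fgf5*, *Fgf8*, *Fgf9*, *Fgf10*, *Fgf13*, *Fgf15*, *Fgf17* and *Fgf18*. A member was a row of the value table whose gene symbol in the platform annotation is one of these names. Each of the 10 had exactly 1 row, among 23410 rows with a gene symbol and 35556 rows in all. The 10 are a part of the family, chosen with earlier results of these data known. The arrays also measured 12 other FGF family genes, ligands among them, which are given with the rest of the pathway. *Fgf3*, *Fgf4* and *Fgf15* lie on chromosome 7, *Fgf9* and *Fgf17* on 14, *Fgf5* on 5, *Fgf8* on 19, *Fgf10* on 13, *Fgf18* on 11 and *Fgf13* on X. The samples were R1 mouse ES cells differentiated into neural progenitor (NP) cells in N2B27, a serum-free medium that lets ES cells adopt a neural fate, and RNA was taken at Day 4. There were 4 *Sox3* null cultures, which carry GFP in place of the *Sox3* coding exon, and 4 control cultures labelled *Sox3* positive, from an R1 line with a conditional *Sox3* allele. Each genotype had 2 cultures in each of 2 independent differentiation series, called batch 2 and batch 1 here. A separate Affymetrix array was run for each culture. The genotypes are carried by different ES lines, so an effect of *Sox3* and another difference between the lines cannot be told apart, and no source used here says whether either line is a single clone.

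FGF ligands are mostly secreted proteins that bind FGF receptors, which are tyrosine kinases, together with heparan sulfate. The receptors signal largely through RAS and ERK, which switch on ETS factors of the Etv group and feedback inhibitors such as the Sprouty and Dusp proteins. In mouse ES cells, autocrine FGF4 drives the exit from the naive pluripotent state and FGF5 marks the epiblast that follows. In the neural tube, FGF8 and its relatives FGF17 and FGF18 are made at signalling centres such as the isthmus, the border of midbrain and hindbrain. FGF13 stands apart, since it belongs to the intracellular FGFs that bind sodium channels and microtubules rather than receptors.

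The labels were checked first. *Sox3* averaged a log2 signal of 8.50 ± 0.14 in *Sox3* null cells and 9.81 ± 0.09 in control cells (SD, n = 4 each), without overlap. The *Sox3* row thus still read between 8.37 and 8.67 on the null arrays, above background on all of them, and which part of the gene its probes cover was not analysed here. The 6 NP markers listed for this check (*Sox1*, *Sox2*, *Pax6*, *Nes*, *Hes5* and *Zic1*) all read above background on every array, and so did the 7 neuron and the 7 naive pluripotency markers. Background was taken as the 95th percentile of 1035 olfactory receptor rows, which lay between 6.07 and 6.26 on the 8 arrays. All 10 FGF ligand rows exceeded that level on all 8 arrays. *Fgf9*, *Fgf10* and *Fgf17*, with group means between 6.65 and 6.91, were the nearest to it by group mean, and *Fgf3* had the lowest single reading of the 10, 6.52 on *Sox3* null replicate 4. Signals of different rows depend on their probes and are not set against each other.

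None of the 10 FGF ligand genes passed the test between genotypes, whereas 5 of them fell in batch 2 relative to batch 1. Rows were fitted with limma for genotype and batch over all 23410 named rows, and a gene was called at a Benjamini-Hochberg adjusted p of 0.05 or less. Of all rows, 1.55% were called between genotypes by this rule, so a count of 0 among 10 is near that background. The smallest adjusted p of a member was 0.102, for *Fgf15*. At an unadjusted p under 0.05 there were 4 members, *Fgf5*, *Fgf8*, *Fgf10* and *Fgf15*, all of them lower in *Sox3* null cells, against 13.1% of all rows by that rule, with 5.8% of all rows lower. By adjusted p, 0.393% of all rows were lower in *Sox3* null cells and 1.15% higher, and neither count held a member. For no member did the 4 null arrays lie on one side of the 4 control arrays, as they did for 4.6% of all rows. A plain linear model with the same terms also called 0 members. Over the 10 genes the log2 difference of *Sox3* null minus control had a median of -0.05, with 8 of 10 below 0, against 0.00 and 50% over all rows.

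**Figure D1:**
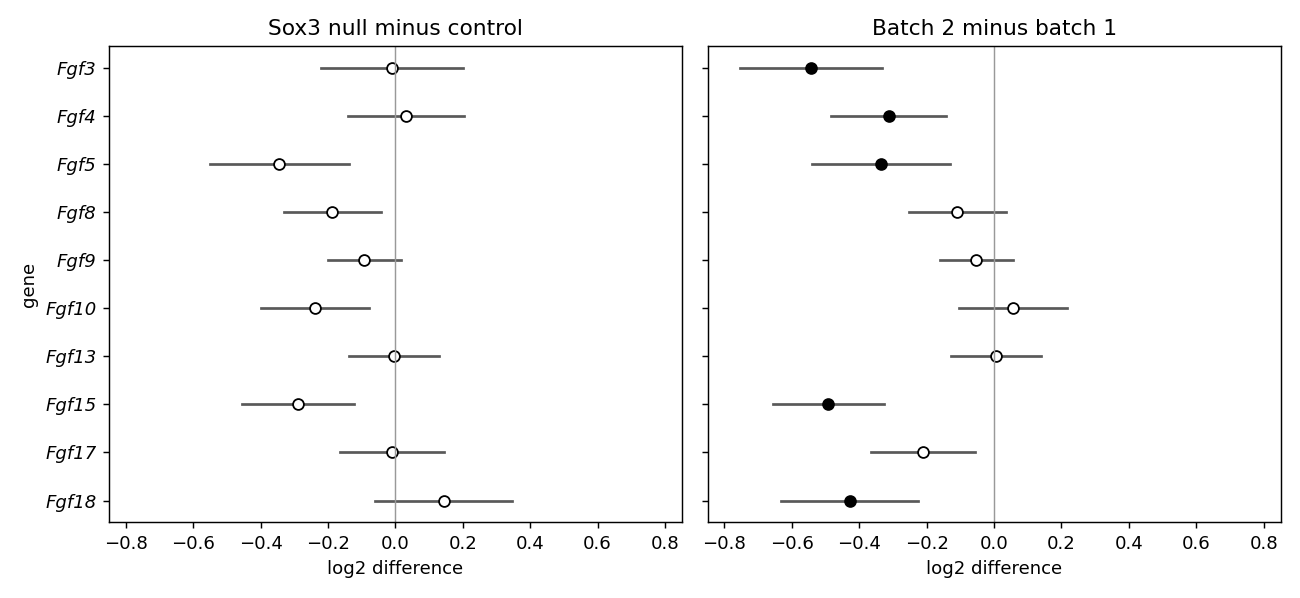
Log2 differences of the 10 FGF ligand genes (horizontal axes), *Sox3* null minus control on the left and batch 2 minus batch 1 on the right, from limma with both terms over 8 arrays. Points are estimates, lines 95% intervals, and filled points have an adjusted p of 0.05 or less; no point is filled for genotype and 5 are filled for batch, all 5 below 0.

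Between batches, *Fgf3*, *Fgf4*, *Fgf5*, *Fgf15* and *Fgf18* were lower in batch 2 and none of the 10 was higher. By the same rule 20.2% of all rows were called between batches, 9.35% lower and 10.9% higher in batch 2. The median log2 difference of batch 2 minus batch 1 was -0.26 over the 10 genes, with 8 of 10 below 0, and 0.00 over all rows, with 49.1% below 0. Of the 12 other FGF family genes none was called between batches, and their median was -0.04. With a fold change of 1.4 asked for as well, *Fgf3* (1.46-fold lower) and *Fgf15* (1.41-fold lower) remained, where 2.49% of all rows did. The plain linear model called 1 of the 10 between batches, *Fgf15* (adjusted p = 0.0322). The 4 arrays of batch 2 lay below the 4 arrays of batch 1 for 5 members, *Fgf3*, *Fgf4*, *Fgf15*, *Fgf17* and *Fgf18*, as they did for 9.34% of all rows, and the batches were apart in either direction for 21%. With the genotypes taken one at a time, batch 2 lay below batch 1 in both for 6 members, these 5 and *Fgf5*, and for 13.3% of all rows. A batch here is 1 independent differentiation series, so the batch p-values do not measure the spread between series. What else differed between the series is said by no source used here. Genes of several cell states were lower in batch 2 as well, among them 5 of 7 naive pluripotency and 5 of 9 isthmus genes. So were 3 of 6 NP, 2 of 5 endoderm and 2 of 6 fibroblast markers, with none of these higher. The neuron markers (2 lower, 2 higher) and general pluripotency genes (1 lower, 1 higher) went both ways. The part of cell states in the ligand values was not tested. In RNA from whole cultures, fewer cells that make a transcript and less of it per cell cannot be told apart.

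**Figure D2:**
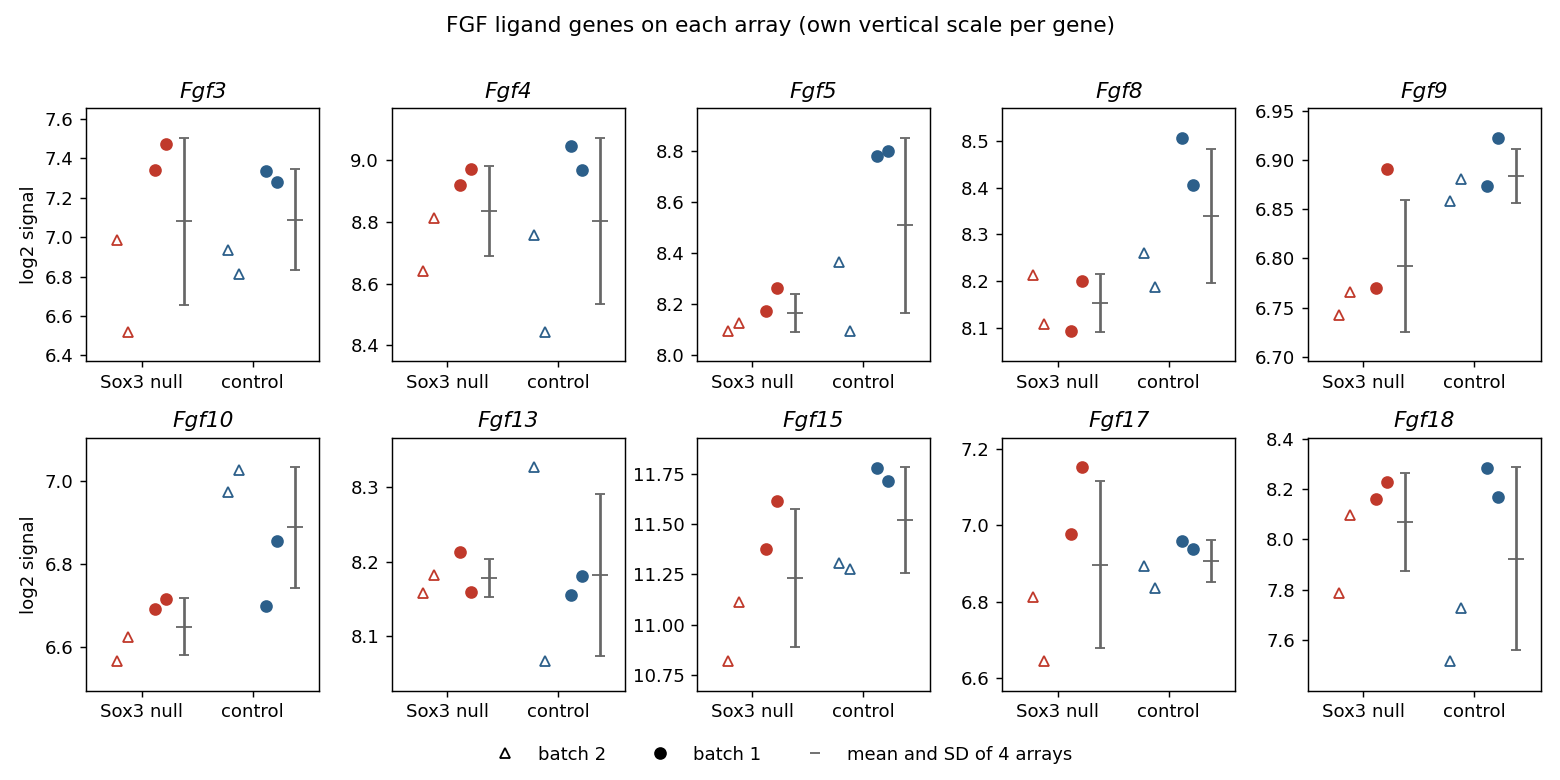
Log2 signal (vertical axes, a scale of its own for each gene) of the 10 FGF ligand genes on each of the 8 arrays, *Sox3* null left of control. Open triangles are batch 2, filled circles batch 1, and grey bars the mean and SD of 4 arrays; *Fgf5* stands at 8.78 and 8.80 on the batch 1 controls and at 8.36 or less elsewhere.

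*Fgf15*, the mouse counterpart of human FGF19, is a target of Hedgehog signalling in the neural tube and a hormone of bile acid control in the gut. On the *Sox3* null arrays it read 10.82 and 11.11 in batch 2 and 11.38 and 11.61 in batch 1, against 11.31 and 11.28 in batch 2 and 11.78 and 11.71 in batch 1 on the control arrays. Within either batch both null arrays lay below both control arrays. *Fgf15* was the sole member of the 10 for which this held, and it held for 5.04% of all rows. Its log2 difference between genotypes was -0.29 (standard error 0.07, 95% interval -0.45 to -0.12, adjusted p = 0.102). The difference was -0.33 in batch 2 and -0.25 in batch 1, and over every fit that left out 1 array it stayed between -0.34 and -0.22. The larger contrast was that of batch, at -0.49 (standard error 0.07, adjusted p = 0.00121), with the 4 arrays of batch 2 all below those of batch 1.

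*Fgf4* and *Fgf5* are among the ligands of the early epiblast. *Fgf4*, a direct target of OCT4 and SOX2 in ES cells, read 8.64 and 8.81 in batch 2 and 8.92 and 8.97 in batch 1 on the *Sox3* null arrays, against 8.76 and 8.44 in batch 2 and 9.05 and 8.97 in batch 1 on the control arrays. The genotypes overlapped within both batches, and their log2 difference was 0.03 (95% interval -0.14 to 0.20, adjusted p = 0.917), an interval that excludes a change of 1.4-fold in either direction. *Fgf4* fell by 0.31 in batch 2 (standard error 0.08, adjusted p = 0.016), and this call was lost without *Sox3* null replicate 3 (adjusted p = 0.0517) or control replicate 1 (0.0558).

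*Fgf5*, which marks primed epiblast cells, read 8.09 and 8.13 in batch 2 and 8.18 and 8.26 in batch 1 on the *Sox3* null arrays. The control arrays read 8.36 and 8.09 in batch 2 and 8.78 and 8.80 in batch 1. The 2 batch 1 control arrays thus stood above the 6 others, which spanned 8.09 to 8.36. The log2 difference between genotypes was -0.34 (standard error 0.09, 95% interval -0.55 to -0.14, adjusted p = 0.118), the largest in size of the 10. It was -0.12 in batch 2 (95% interval -0.33 to 0.09) and -0.57 in batch 1 (95% interval -0.78 to -0.36). Without control replicate 4, the lowest of the control readings at 8.09, it was -0.44 and passed (adjusted p = 0.018). It did not pass when any other single array was left out (adjusted p of 0.13 to 0.34), so the call hangs on which array is dropped. Between batches *Fgf5* fell by 0.33 in batch 2 (standard error 0.09, adjusted p = 0.0269), a call that was lost without control replicate 1 (0.0856), control replicate 2 (0.082) or control replicate 3 (0.059).

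*Fgf8*, *Fgf17* and *Fgf18* form the FGF8 subfamily, whose members act at the isthmus and, for FGF8 and FGF17, in the rostral forebrain. *Fgf8* read 8.21 and 8.11 in batch 2 and 8.09 and 8.20 in batch 1 on the *Sox3* null arrays, against 8.26 and 8.19 in batch 2 and 8.51 and 8.40 in batch 1 on the control arrays. As for *Fgf5*, the highest 2 of the 8 values were the batch 1 controls. The log2 difference between genotypes was -0.19 (standard error 0.07, 95% interval -0.33 to -0.04, adjusted p = 0.238), with -0.06 in batch 2 and -0.31 in batch 1. Between batches it was -0.11 and did not pass (adjusted p = 0.297).

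For *Fgf17* and *Fgf18* the order of the genotypes was not the same in both batches. *Fgf17* read 6.81 and 6.64 in batch 2 and 6.98 and 7.15 in batch 1 on the *Sox3* null arrays, against 6.89 and 6.84 in batch 2 and 6.96 and 6.94 in batch 1 on the control arrays. Its null arrays were thus below the controls in batch 2 (-0.14) and above them in batch 1 (0.12), for an average of -0.01 (adjusted p = 0.975). Of all rows 2.98% were apart in opposite ways like this, and *Fgf17* was the sole member. *Fgf18* read 7.79 and 8.09 in batch 2 and 8.16 and 8.23 in batch 1 on the null arrays, against 7.52 and 7.73 in batch 2 and 8.28 and 8.17 in batch 1 on the controls. Its log2 difference between genotypes was 0.14 (95% interval -0.06 to 0.35, adjusted p = 0.573), with 0.32 in batch 2 and -0.03 in batch 1. It was 0.047 without *Sox3* null replicate 4 and 0.066 without control replicate 3, and between 0.15 and 0.20 when another array was left out. For batch, *Fgf18* fell by 0.43 in batch 2 (standard error 0.09, adjusted p = 0.00802), and *Fgf17*, at -0.21, did not pass (adjusted p = 0.0568).

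*Fgf3*, *Fgf9* and *Fgf10* are ligands of inner ear, lung and limb development, among other sites. *Fgf3* read 6.99 and 6.52 in batch 2 and 7.34 and 7.47 in batch 1 on the *Sox3* null arrays, against 6.93 and 6.81 in batch 2 and 7.33 and 7.28 in batch 1 on the control arrays. The genotype difference was -0.01 (95% interval -0.22 to 0.20, adjusted p = 0.986), whereas *Fgf3* fell by 0.54 in batch 2 (standard error 0.10, adjusted p = 0.00262), the largest batch contrast of the 10. *Fgf10*, which signals from mesenchyme through an epithelial form of FGFR2, read 6.56 and 6.62 in batch 2 and 6.69 and 6.71 in batch 1 on the null arrays, against 6.97 and 7.03 in batch 2 and 6.70 and 6.85 in batch 1 on the controls. The groups were apart in batch 2 alone, where the difference was -0.41 (95% interval -0.58 to -0.23), and the difference over both batches was -0.24 (standard error 0.07, adjusted p = 0.169). *Fgf9* read between 6.74 and 6.89 on the null arrays and between 6.86 and 6.92 on the controls, a difference of -0.09 (95% interval -0.20 to 0.02, adjusted p = 0.475).

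*Fgf13*, the intracellular member, read between 8.16 and 8.21 on the *Sox3* null arrays and between 8.07 and 8.33 on the control arrays. It had the differences nearest to 0 of the 10 genes for both terms. The 95% interval ran from -0.14 to 0.13 for genotype and from -0.13 to 0.14 for batch, so that a change of 1.4-fold lies outside both.

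Whether the genotype difference itself varied between batches was tested with a genotype by batch term. None of the 10 members passed in limma, with an adjusted p of 0.9997 for each, and none did in the plain linear model. None of the 23410 rows passed either (smallest adjusted p = 0.862). At an unadjusted p under 0.05 there were 2 members, *Fgf5* and *Fgf10*, against 3.05% of all rows. For *Fgf5* the difference of batch 2 minus batch 1 was 0.45 (95% interval 0.16 to 0.75, unadjusted p = 0.00668), and for *Fgf10* it was -0.33 (95% interval -0.58 to -0.09, unadjusted p = 0.0136). The 10 genes therefore show values within batches that differ in size and sign, without a difference between batches that passed the correction.

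**Figure D3:**
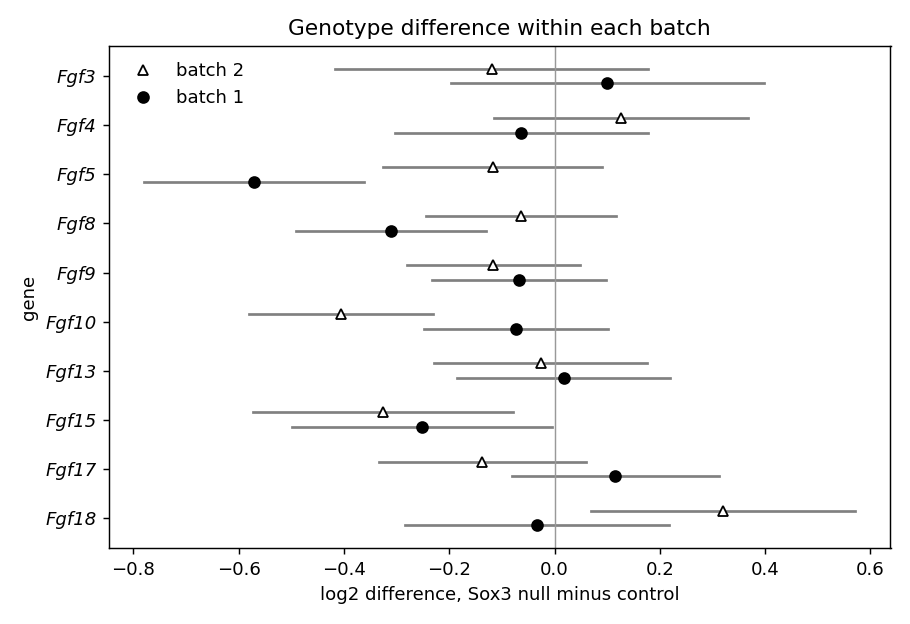
Log2 difference of *Sox3* null minus control (horizontal axis) within batch 2 (open triangles, upper) and batch 1 (filled circles, lower) for each FGF ligand gene, with 95% intervals from limma on 2 arrays a group. *Fgf15* lies below 0 in both batches, *Fgf5* is at -0.12 in batch 2 and -0.57 in batch 1, and *Fgf10* is at -0.41 in batch 2 and -0.07 in batch 1.

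*Fgf3*, *Fgf4* and *Fgf15* are neighbours on chromosome 7 in the gene order of GRCm38.p6, and all 3 fell in batch 2. The measured genes on either side were looked up after these values were seen. *Ano1*, a chloride channel gene and the nearest measured gene on the *Fgf3* side, also fell, by 0.36 in batch 2 (standard error 0.08, adjusted p = 0.00885). On the other side, *LTO1* had a batch difference of 0.03 (adjusted p = 0.798) and the cell cycle gene *Ccnd1* had -0.04 (0.697). *Fadd*, *Ppfia1* and *Cttn*, beyond *Ano1*, had -0.11, -0.10 and -0.18, and none of these passed. Between genotypes, *Fgf3* and *Fgf4* had -0.01 and 0.03 and *Fgf15* had -0.29, and none of the 3 passed. Whether the 3 genes differ from each other was not tested.

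**Figure D4:**
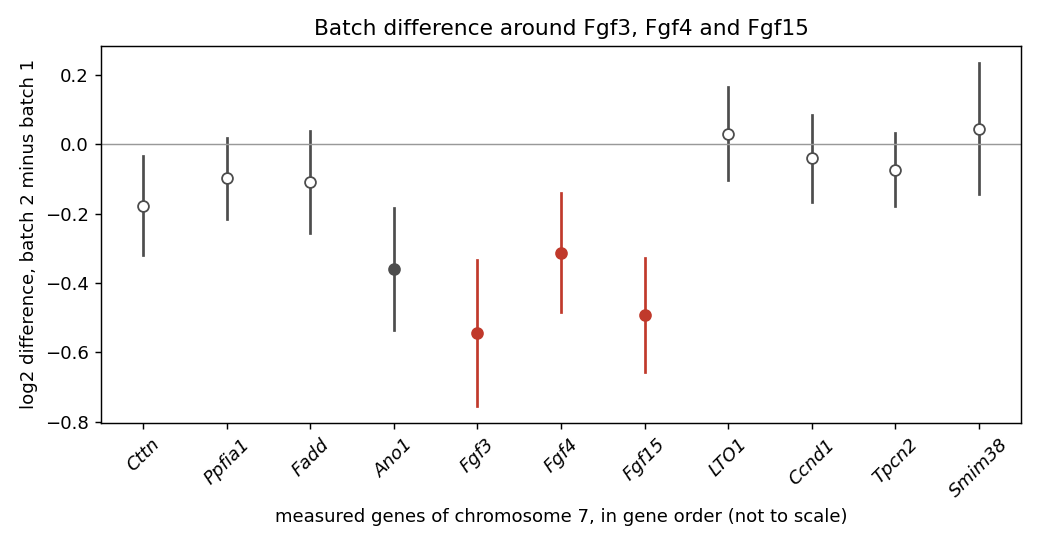
Log2 difference of batch 2 minus batch 1 (vertical axis) with 95% intervals for *Fgf3*, *Fgf4* and *Fgf15* (red) and the 4 measured genes on either side (grey), in gene order and not to scale. Filled points have an adjusted p of 0.05 or less; these are *Ano1* and the 3 *Fgf* genes, between -0.31 and -0.54, and the 4 genes to the right of *Fgf15* lie between -0.07 and 0.05.

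Promoter sequences are shown for 4 of the 5 ligand genes that fell in batch 2, so that their 5′ ends can be compared. They are the 250 bases upstream of each start in RefSeq on GRCm38.p6, 5′ to 3′ along the gene, and 7 of the 10 members matched the table (not *Fgf8*, *Fgf15* or *Fgf17*). Capitals mark the GC box GGGCGG on either strand, a site bound by Sp and Klf factors.
*Fgf3*, chr7:144838362-144838611, plus strand: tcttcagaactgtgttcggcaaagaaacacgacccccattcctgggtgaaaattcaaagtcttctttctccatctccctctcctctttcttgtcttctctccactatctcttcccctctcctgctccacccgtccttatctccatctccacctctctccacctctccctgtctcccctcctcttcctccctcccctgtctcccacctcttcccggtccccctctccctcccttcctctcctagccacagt
*Fgf4*, chr7:144861136-144861385, plus strand: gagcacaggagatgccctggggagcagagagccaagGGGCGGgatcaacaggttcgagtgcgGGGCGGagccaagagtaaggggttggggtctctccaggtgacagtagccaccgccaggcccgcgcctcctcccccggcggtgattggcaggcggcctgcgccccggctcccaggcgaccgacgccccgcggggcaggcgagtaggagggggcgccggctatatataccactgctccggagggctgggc
*Fgf5*, chr5:98253934-98254183, plus strand: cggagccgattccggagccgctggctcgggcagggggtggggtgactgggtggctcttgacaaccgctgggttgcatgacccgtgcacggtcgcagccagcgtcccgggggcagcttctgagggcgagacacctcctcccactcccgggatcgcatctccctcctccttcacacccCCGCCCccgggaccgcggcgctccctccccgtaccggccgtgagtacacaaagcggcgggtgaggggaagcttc
*Fgf18*, chr11:33147401-33147650, minus strand: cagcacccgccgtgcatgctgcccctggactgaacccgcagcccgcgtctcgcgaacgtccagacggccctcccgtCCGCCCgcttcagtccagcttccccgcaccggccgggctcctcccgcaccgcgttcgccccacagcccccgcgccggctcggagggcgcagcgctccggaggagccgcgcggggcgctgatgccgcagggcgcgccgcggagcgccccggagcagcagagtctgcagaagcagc
The *Fgf4* window holds 2 GC boxes, the *Fgf5* and *Fgf18* windows 1 each and the *Fgf3* window 0, where 32.7% of all 32851 promoter windows of this length hold at least 1. GC content was 55.2% for *Fgf3*, 71.2% for *Fgf4*, 70.8% for *Fgf5* and 77.2% for *Fgf18*, against a median of 52.4% over all windows. Among members not called between batches, it was 44.8% for *Fgf9* (0 GC boxes) and 61.2% for *Fgf10* (1). For *Fgf13*, which has several starts, it ran from 40.4% (0 GC boxes) to 74.8% (3). The SOX core CATTGT, searched on both strands, is in none of the 4 windows and in 10.7% of all windows, and the POU octamer ATGCAAAT is in none of the 4 and in 1.6% of all. These are matches of exact letters in a short window and say nothing of binding. Variants of the SOX and POU sites that differ by a letter were not searched, so the windows may hold other forms of them.

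The rest of the pathway was taken from lists by role, 52 genes of which 46 were analysed here. Between genotypes 1 of the 46 rose, 0 fell and 45 did not pass, against 1.55% of all rows called. The gene that rose was *Fgfr3*, a receptor of ventricular zone progenitors, which read between 9.60 and 9.90 on the *Sox3* null arrays and between 9.06 and 9.23 on the control arrays. Its log2 difference was 0.62 (standard error 0.06, adjusted p = 9.86e-04), although the plain linear model did not call it (adjusted p = 0.0754). *Fgfr1*, the main receptor of ES and NP cells, had -0.19 (adjusted p = 0.148) and *Fgfr2* had 0.10 (0.455). Among feedback and target genes, the ERK-induced factor gene *Egr1* had -0.26 (adjusted p = 0.0545), the Sprouty gene *Spry1* had 0.23 (0.0584), *Il17rd*, a membrane inhibitor of FGF receptors, had -0.28 (0.0719) and *Spry4* had -0.21 (0.128). None of these 4 passed, and their signs were mixed. The 12 other FGF family genes had a median of -0.04, and 5 of them exceeded the olfactory receptor level on all 8 arrays.

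Between batches most of the feedback and target genes passed the test. Of the 15 feedback and target genes 9 were lower in batch 2, 3 were higher and 3 did not pass, against 9.35% of all rows lower and 10.9% higher. *Il17rd* read between 8.93 and 9.45 in batch 2 and between 9.77 and 10.10 in batch 1, and fell by 0.73 (standard error 0.07, adjusted p = 8.36e-05). *Dusp4*, an ERK phosphatase gene, fell by 0.61, *Egr1* by 0.55, *Spry4* by 0.44, *Spry1* by 0.41 and *Etv5*, an ETS factor gene, by 0.22. The 3 that rose in batch 2 were *Spry3* (0.50), which exceeded the olfactory receptor level on 4 of the 8 arrays, *Etv1* (0.21) and *Dusp6* (0.18), an ERK phosphatase gene that is a direct readout of FGF signalling in many tissues. The list thus did not move one way. Of the 7 receptors and co-receptors *Fgfr2* fell by 0.45 and the decoy receptor gene *Fgfrl1* rose by 0.20, and of the 12 transducers analysed here *Map2k1* rose by 0.39 and *Sos2* by 0.17. None of the 12 other FGF family genes passed, with a range of -0.15 to 0.16.

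**Figure D5:**
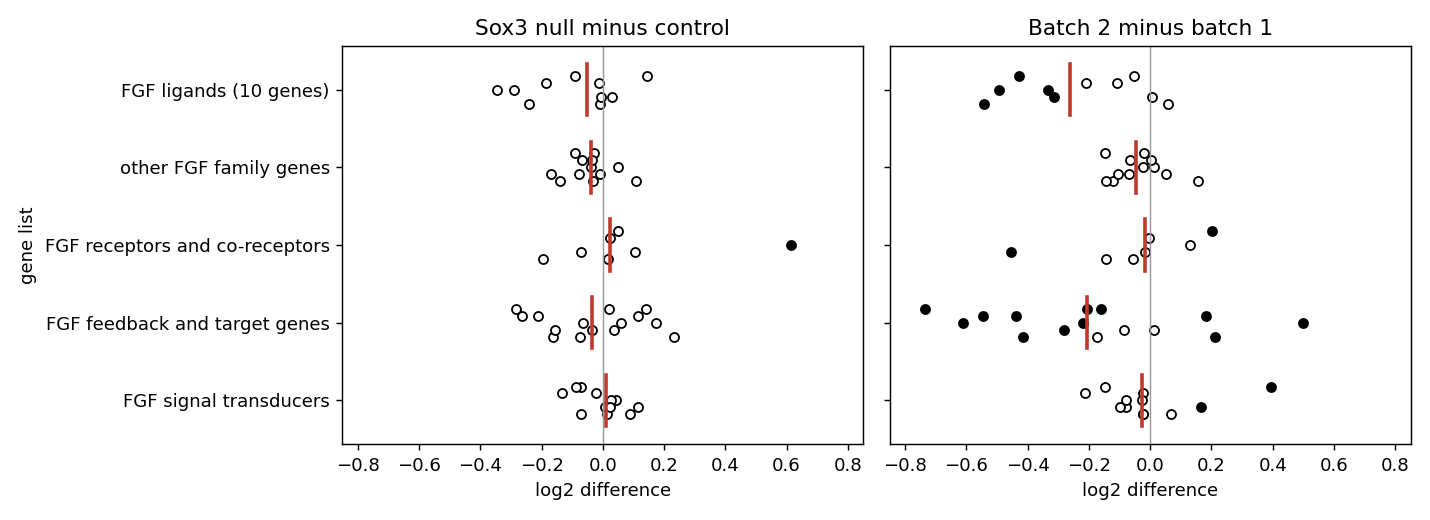
Log2 differences of genes of the FGF pathway by role (horizontal axes), *Sox3* null minus control on the left and batch 2 minus batch 1 on the right. Each circle is a gene, filled where the adjusted p was 0.05 or less, and red bars are list medians; *Fgfr3* is the single filled point for genotype, and for batch the medians are -0.26 for the ligands and -0.21 for the feedback and target genes.

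Genes of cell states, among them those in which these ligands are known to be made, were set beside them. Of all rows 9.35% were lower and 10.9% higher in batch 2. The 7 naive pluripotency genes had a mean log2 signal between 8.19 and 8.36 on the batch 2 arrays and between 8.46 and 8.65 on the batch 1 arrays, and 5 of the 7 were lower in batch 2, among them *Tfcp2l1* (-0.59) and *Tbx3* (-0.42). Of 9 isthmus genes 5 were lower in batch 2, with *Wnt1* at -0.79, *En1* at -0.40 and *Pax2* at -0.29. Of 7 caudal epiblast and mesoderm genes analysed here 2 were lower in batch 2, *Cdx2* (-0.61) and *Eomes* (-0.55). The neuron markers moved both ways, with 2 of 7 higher in batch 2 (*Dcx* and *Elavl4*), 2 lower (*Neurod1* and *Stmn2*) and a median of 0.20. In batch 2, 3 of 6 NP markers, 2 of 6 epiblast genes, 2 of 5 endoderm markers and 2 of 6 fibroblast markers were lower and none higher. Of 6 anterior neural genes analysed here 2 were lower (*Fezf2* and *Lhx2*) and *Otx2* higher, and of 5 general pluripotency genes *Lin28a* was lower and *Tdgf1* higher.

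Between genotypes 0.393% of all rows were lower and 1.15% higher in *Sox3* null cells. Of 6 epiblast genes 3 fell in *Sox3* null cells, *Pim2* (-0.64, adjusted p = 0.0124), *Fst* (-0.48, 0.00517) and *Dnmt3b* (-0.33, 0.0154), and none rose. Of 6 anterior neural genes 2 fell, *Fezf2* (-0.64, adjusted p = 9.48e-04) and *Otx2* (-0.47, 0.0113), both regulators of the forebrain. Of 7 naive pluripotency genes 1 fell, *Nanog* (-0.37, adjusted p = 0.0464), and 6 did not pass. Of 6 NP markers 2 rose, *Nes* (0.49, adjusted p = 0.00947) and *Zic1* (0.36, 0.013), and 4 did not pass. Of 7 neuron markers 1 rose, *Map2* (0.47, 0.0132), and 6 did not pass. Of 6 fibroblast markers 1 fell, *Thy1* (-0.51, 0.00525). None of the isthmus, caudal, general pluripotency or endoderm genes passed.

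The mean of a list was apart between genotypes on all 8 arrays for 5 of these 10 lists. The share of 4.6% over all rows is for single rows, and no share was computed for means of lists. Single genes called in these 5 lists were 3 of 6 epiblast, 0 of 5 general pluripotency, 2 of 6 anterior neural, 2 of 6 NP and 1 of 7 neuron genes. The mean was lower on the null arrays for the epiblast genes (8.98 to 9.06, against 9.23 to 9.45 on the control arrays), the general pluripotency genes (11.07 to 11.16, against 11.24 to 11.34) and the anterior neural genes (6.96 to 7.17, against 7.20 to 7.43). It was higher on the null arrays for the NP markers (10.999 to 11.17, against 10.70 to 10.93) and the neuron markers (9.02 to 9.26, against 8.88 to 8.97). Of the 6 anterior neural genes, 3 exceeded the olfactory receptor level on all 8 arrays. The 2 of them that were called, *Fezf2* and *Otx2*, had the differences of largest size. The 6 fibroblast markers, 5 of them above the olfactory receptor level on all 8 arrays, averaged between 6.90 and 7.20 on the null arrays and between 7.14 and 7.35 on the controls, and between 6.90 and 7.15 in batch 2 and 7.12 and 7.35 in batch 1. The part of these cell states in the values of the FGF ligand genes was not tested.

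For each of the 5 ligand genes that passed between batches, the 3 genes of 19937 with the most similar values over the 8 arrays were taken by Pearson correlation. They are given as a description, since the arrays fall into batches that the correlation follows in part and the best of so many genes is high in any case. For *Fgf15* they were *Klf2* (r = 0.983), *Fam160a2* (0.982) and *Tfcp2l1* (0.981). For *Fgf5* they were *Dsg2* (0.988), *Eef1a1* (0.978) and *Tgm1* (0.965), and for *Fgf18* *Lrp10* (0.986), *Tesk1* (0.983) and *Riox1* (0.980). For *Fgf3* they were *Fhit* (0.976), *Best2* (0.961) and *Olfr1472* (0.960), and for *Fgf4* *Serpine3* (0.974), *Sf3a2* (0.966) and *Itga1* (0.961). *Dsg2*, nearest to *Fgf5*, had a genotype difference of -0.18 and a batch difference of -0.14, and *Eef1a1* had -0.01 and -0.02, so that a like pattern over the arrays can come with values of very different size.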

How the data were processed

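RNA from 8 Day 4 cultures, 4 *Sox3* null and 4 control, was hybridised to Affymetrix Mouse Gene 1.0 ST arrays, and groups and batches were taken from the sample labels. The values deposited by the authors are log2 signals per transcript cluster. The submitters' processing notes name Partek, but no source used here states the normalization, the summary method or the genome build. Symbols come from the platform annotation, and older ones were brought up to date with RefSeq's gene table for GRCm38.p6. Of 35556 rows, 21789 carried 1 symbol, 1621 several, and 12146 were unnamed here and were left out.

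Genotype and batch, the factors of the methods' 2-way analysis, were estimated for the 23410 named rows in limma 3.58.1 (R 4.3.3), with Benjamini-Hochberg adjustment over all of these rows. The threshold for a call was 0.05, and a fold change of 1.4 on top of it, which the study also asked for, was an alternative. Adjusted p-values come from limma except where the plain linear model is mentioned. p-values measure the spread between cultures, and their number limits the precision. Each batch is 1 differentiation series, so a batch p-value measures the spread between cultures within a series and not that between series. The median residual SD was 0.087 on the log2 scale. Of several rows for a gene the brightest was used. Named were all members, up to 4 genes of each other list with the smallest p for genotype or batch, the 3 genes most similar to each member called, and *Sox3*. *Etv5*, *Etv1*, *Dusp6* and the chromosome 7 neighbours fall outside that rule, having been picked with their values in view. The members and the lists were chosen with earlier results of these data known. Same-numbered null and control arrays deviated together after genotype was removed (r of 0.39 to 0.68 across rows). After batch was removed too, r was -0.32 in batch 1 and 0.30 in batch 2. With 2 arrays per genotype and batch, both pairs of a batch have the same r by construction. The check thus cannot show whether the number marked more than the batch. The fit of the genotype term was tested on simulated arrays with known changes, and the batch and genotype by batch terms were not. Alternatives changed the set of rows, the variance estimate, the normalization, the array weights or the treatment of batch, took 1 batch at a time, or dropped 1 array. Promoters are those of RefSeq on GRCm38.p6.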

Additional observations from a re-analysis of the deposited data

Results flagged for a closer look

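*Fgf17* was marked for a closer look because both *Sox3* null arrays lay below both control arrays in batch 2 and above them in batch 1. The genotype difference of batch 2 minus that of batch 1 was -0.25 (95% interval -0.53 to 0.02, unadjusted p = 0.0698, adjusted p = 0.9997 from limma), which did not pass, and 2.98% of all rows were separated in opposite ways like this. The decoy receptor gene *Fgfrl1* was separated in the same manner, above the controls in batch 2 and below them in batch 1, with a difference of 0.28 (unadjusted p = 0.0212), which did not pass after adjustment either.

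In a test of each genotype's 4 arrays for 1 far array, over the FGF ligand genes, *Sox3* and genes of the other lists, 2 of 126 groups were marked. Chance marks about 1 in 20 groups of interchangeable values, a rate that does not carry over here, since each group of 4 holds 2 arrays from each of 2 batches and a gap between batches can hide a far array. Control replicate 4 read 10.47 for the pluripotency gene *Nanog*, with the other controls between 10.70 and 10.74. Control replicate 3 read 10.97 for the NP gene *Sox1*, with the other controls between 11.41 and 11.47.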

How the results depend on the processing

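The count of FGF ligand genes called between genotypes was 0 in 22 of 23 alternatives and 0 to 1 when each array was left out, with *Fgf5* called without control replicate 4. Between batches 5 were called, against 3 with all rows of the table, 1 with the plain linear model (*Fgf15*), 2 with the fold change and 3 to 5 when each array was left out. The genotype by batch count was 0 in all 18 alternatives. The 1 pathway gene called between genotypes became 4 without rows below the median signal, 3 without rows at or below the olfactory receptor level, 3 after a second quantile normalization, 3 with array weights, 2 with rows of a gene averaged, 2 with a replicate block in place of batch, 0 with the plain linear model and 0 in batch 1 alone. The replicate block gave 0 ligand genes and changed no ligand call. Alternatives for the 12 feedback and target genes called between batches were chosen after seeing the data, and the count was 4 with the fold change and 8 to 11 when each array was left out.

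Signs turned for the following differences. For genotype, *Fgf3* was 0.0061 after quantile normalization and 0.10 in batch 1 alone (-0.082 to 0.106 with each array left out), *Fgf4* -0.063 in batch 1 (-0.050 to 0.076), *Fgf13* 0.018 in batch 1 (-0.052 to 0.052), *Fgf17* 0.0095 after quantile normalization and 0.12 in batch 1 (-0.071 to 0.048) and *Fgf18* -0.033 in batch 1. For batch, *Fgf9* was 0.023 after quantile normalization, *Fgf10* -0.0071 to 0.103 and *Fgf13* -0.050 to 0.054 with each array left out. The cause was not tested. *Fgf15* kept its batch call in all 17 alternatives, *Fgf5* lost it in 6, *Fgf4* in 4, and *Fgf3* and *Fgf18* in the plain linear model, and *Fgf17* gained one without rows at or below the olfactory receptor level (adjusted p = 0.0439 from limma). The number of arrays, 4 a genotype, limits the precision, and each batch is 1 differentiation series.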
